A study of Homo sapiens with 6 samples.

Results

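The DNA replication machinery is the set of proteins that licenses, unwinds and copies chromosomal DNA once per cell cycle and supplies the nucleotides for it. A list of 57 of its genes was drawn up by function, and 28 of them had a probe set annotated to that symbol alone, out of 14884 genes named this way on the array. GINS4 and CLSPN had a second probe set, and there the brighter of the pair by mean level represents the gene. The measured genes comprised 2 of 9 for origin licensing, all 15 for the replicative helicase and its activators, 2 of 21 for polymerases and their partners, 3 of 4 for nucleotide supply, and 6 of 8 for fork protection and chromatin assembly. The other 29 are not analysed here. They are ORC1, ORC2, ORC3, ORC4, ORC5, ORC6, GMNN, POLA1, POLA2, PRIM1, PRIM2, POLD1, POLD2, POLD3, POLE, POLE2, POLE3, RFC1, RFC2, RFC3, RFC4, RFC5, RPA1, RPA2, RPA3, LIG1, TK1, CHAF1A and CHAF1B. The licensing and polymerase groups are therefore each seen through a pair of genes only, and the polymerase subunits are not analysed here.

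The cells were BE(2)-C_tetoff_KDM4C, a derivative of the human neuroblastoma line BE(2)-C. They carry KDM4C, an enzyme that removes methyl groups from histone H3 at lysine 9, under tet-off control, so that the transgene is expressed in the absence of doxycycline and repressed in its presence. Total RNA was read on 6 Affymetrix whole-transcript arrays, 3 from cells kept for 6 days without doxycycline (construct on) and 3 from cells kept for 6 days with doxycycline (construct off), all in medium with dialyzed serum. Both groups carry the construct, and no cells without it were analysed here, so an effect of KDM4C and an effect of doxycycline withdrawal cannot be told apart. The submitters' design text speaks of 3 independent samples each. The labels do not say whether these came from separate cultures or whether the derivative is 1 clone. The p-values therefore measure the spread between these samples, which may be technical.

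The values are log2 expression values as the authors deposited them, and a difference is the mean without doxycycline minus the mean with it. KDM4C itself read 8.97, 9.08 and 9.02 without doxycycline, against 7.71, 7.77 and 7.80 with it, a log2 difference of 1.27 (SE 0.07, limma adjusted p = 0.00788). That call was lost (limma adjusted p = 0.0597 to 0.0696) without doxycycline replicate 1 or 2 or without no-doxycycline replicate 2 or 3. Arrays correlated at 0.991 to 0.993 within groups and 0.990 to 0.991 between groups over all probe sets, and no array stood apart. The sympathetic neuroblast factors HAND2 (10.2 in both groups), GATA3 (9.56 without and 9.54 with doxycycline) and PHOX2A (9.13 and 8.98) read well above the median probe set at 3.94, as did all 11 markers of neuroblastoma identity measured. By limma 0 of those 11 were called, where 0.341% of all probe sets were. An unadjusted p below 0.05 was found for 54.5% of them, beside 12.4% of all probe sets and 14.4% of named genes. Of these, ALK (0.54), TH (0.34) and DBH (0.28) were higher and CHGA (-0.40), CHGB (-0.34) and STMN2 (-0.23) lower on the log2 scale. Of other cell types' markers, all 3 endothelial markers measured lay below that median, as did 3 of 4 Schwann and neural crest markers, 2 of 3 immune markers and 2 of 5 epithelial markers, while the fibroblast markers LUM (11.1 and 11.4) and DCN (5.58 and 6.87) lay above it. DCN, at a difference of -1.29, passed limma's threshold (adjusted p = 0.0119), and LUM, at -0.30, did not (adjusted p = 0.139). The DCN call was lost without the same single arrays as that of KDM4C (adjusted p = 0.0597 to 0.0696). These 2 were the only fibroblast markers measured of 6 listed. Which cells made these transcripts, and any part of other cell types in the results below, was not tested.

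Before a cell can copy its DNA, the origin recognition complex, CDC6 and CDT1 load the MCM2 to MCM7 ring onto origins in G1. The kinase CDC7 with DBF4 then recruits CDC45 and the GINS complex, which turn the ring into the active helicase, and the primase and polymerases follow. Transcription of many of these genes is timed by E2F factors at the passage from G1 to S, whereas genes of mitosis are timed mainly through an element called CHR, near their start sites, later in the cycle. In RNA of a whole culture, a different share of cells in S phase and a different amount of RNA per cell cannot be told apart.

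Short words that stand for these 2 elements were looked for in the promoters. RefSeq windows of GRCh38.p14, from 250 bases before to 50 bases after the gene start, were found for 25 of the 28 genes (all but GINS4, MCM4 and MCM5) and searched on both strands. The first E2F word was TTCCCGC. Its variants searched as well were TTCGCGC, then the form TTGCCGC, and last the form TTGGCGC. For CHR the main word was TTTGAA and its variant was TTCGAA. Overlapping matches were counted separately. Taking the first window listed for each gene, 17 of 25 replication promoters (68%) held an E2F word, against 17.4% of the 10749 genes with a named probe set and a window. In 20 promoters of mitosis genes the share was 25%. CHR words stood in 3 of 25 replication promoters (12%), near the 13.2% of the named genes, and in 14 of 20 mitosis promoters (70%). CCAAT words stood in 64% of the replication, 75% of the mitosis and 36% of the named promoters. With any window of a gene accepted, E2F shares were 80%, 25% and 20.6% and CHR shares 16%, 75% and 17% in the same order. A match is a stretch of letters and not a measured binding site. The windows of 4 replication genes and 1 mitosis gene are printed 5′ to 3′, in the gene's direction, with the E2F or CHR words in capitals. CDT1 and TIMELESS had positive differences with an unadjusted p below 0.05, and MCM6 and CDC6 had differences near 0. CCNB2, a mitotic cyclin, is shown for contrast. In MCM6 the capitals nearest to the 5′ end mark a CHR word, and the others mark E2F words on opposite strands that overlap. In CCNB2 they mark a CHR word, and in the other windows E2F words.
CDT1, chr16:88803539-88803838, plus strand: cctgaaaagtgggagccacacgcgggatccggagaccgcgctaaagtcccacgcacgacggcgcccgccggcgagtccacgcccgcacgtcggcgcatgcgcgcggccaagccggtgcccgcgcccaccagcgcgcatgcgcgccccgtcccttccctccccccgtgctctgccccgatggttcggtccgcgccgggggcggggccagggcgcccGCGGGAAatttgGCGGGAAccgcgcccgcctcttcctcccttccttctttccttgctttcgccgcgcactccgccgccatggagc
TIMELESS, chr12:56449377-56449676, minus strand: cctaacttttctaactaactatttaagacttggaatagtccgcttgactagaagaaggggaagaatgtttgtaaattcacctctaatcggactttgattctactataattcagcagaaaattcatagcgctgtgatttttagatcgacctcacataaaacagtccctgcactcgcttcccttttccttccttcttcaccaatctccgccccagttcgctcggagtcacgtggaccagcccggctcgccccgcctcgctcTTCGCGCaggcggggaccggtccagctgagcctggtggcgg
MCM6, chr2:135876394-135876693, minus strand: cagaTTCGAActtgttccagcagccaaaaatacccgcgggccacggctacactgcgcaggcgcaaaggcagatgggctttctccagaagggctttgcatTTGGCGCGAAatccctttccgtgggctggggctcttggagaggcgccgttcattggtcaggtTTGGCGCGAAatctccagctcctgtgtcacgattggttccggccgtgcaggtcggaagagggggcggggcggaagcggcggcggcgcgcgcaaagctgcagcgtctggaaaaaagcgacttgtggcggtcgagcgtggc
CDC6, chr17:40287629-40287928, plus strand: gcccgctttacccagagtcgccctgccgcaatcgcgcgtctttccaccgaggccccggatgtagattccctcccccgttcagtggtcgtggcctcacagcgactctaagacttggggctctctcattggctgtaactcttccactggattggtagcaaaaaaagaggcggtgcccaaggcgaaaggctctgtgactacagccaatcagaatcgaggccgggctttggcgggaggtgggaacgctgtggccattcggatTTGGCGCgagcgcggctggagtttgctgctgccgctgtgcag
CCNB2, chr15:59104896-59105195, plus strand: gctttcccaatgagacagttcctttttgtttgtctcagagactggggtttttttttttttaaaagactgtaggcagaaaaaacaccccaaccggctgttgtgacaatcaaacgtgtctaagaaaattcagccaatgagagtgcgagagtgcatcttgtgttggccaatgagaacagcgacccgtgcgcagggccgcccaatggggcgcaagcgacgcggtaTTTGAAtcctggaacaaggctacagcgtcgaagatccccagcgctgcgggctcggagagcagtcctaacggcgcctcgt

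**Figure D1:**
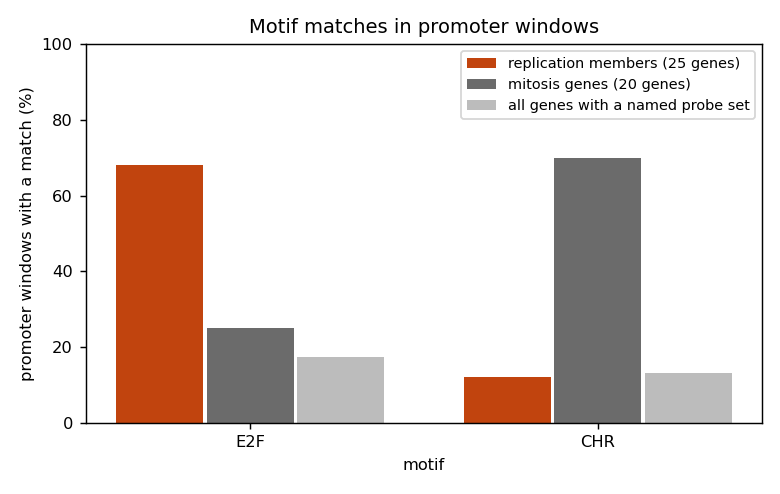
Share of promoter windows (%) with at least 1 match to the E2F or CHR words, for 25 replication genes, 20 mitosis genes and all genes with a named probe set and a window. E2F words stand in 68%, 25% and 17.4% and CHR words in 12%, 70% and 13.2%, in that order.

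In the cells without doxycycline, 0 of the 28 replication genes were called higher and 0 were called lower by limma at an adjusted p below 0.05, where 0.341% of all 53617 probe sets were called (0.248% higher and 0.0933% lower) and 0.564% of named genes. At an unadjusted p below 0.05, 4 were higher (GINS4, CDT1, MCM5 and TIMELESS) and 0 were lower. That is 14.3% of the 28, beside 12.4% of all probe sets (6.7% higher and 5.73% lower) and 14.4% of named genes, so the share of replication genes was near the background. The differences were small. Their median was 0.03, beside 0.01 over all probe sets and -0.002 over named genes. Of the 28, 21 were positive and 7 negative, beside 7358 and 7526 of the named genes. On the log2 scale 25 of the 28 were within 0.2 of 0, as were 12305 of the 14884 named genes. The 95% intervals of 26 genes lay wholly between -0.5 and 0.5, so that for each of these a 1.41-fold change in either direction was outside its interval. The exceptions were GINS4 and CDT1. These intervals are per gene and not adjusted for their number.

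**Figure D2:**
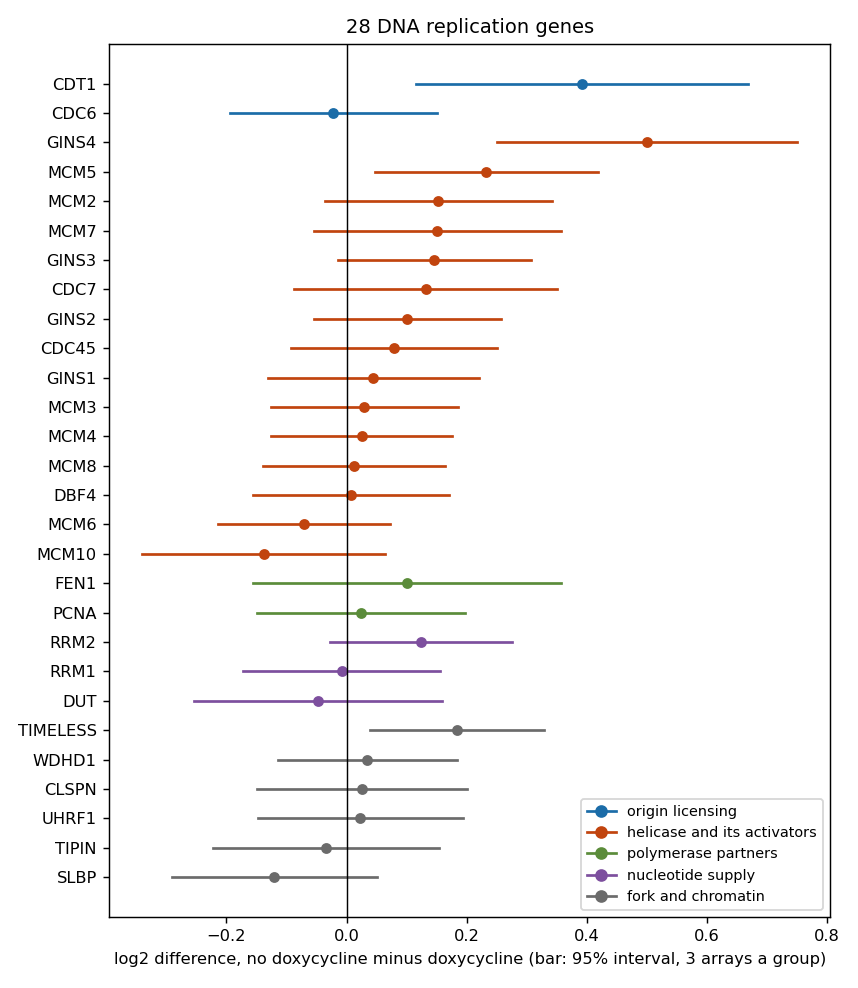
Log2 difference (no doxycycline minus doxycycline) of the 28 replication genes with its 95% interval from the limma fit, by role group. Most points lie within 0.2 of 0, and the intervals of GINS4, CDT1, MCM5 and TIMELESS do not cross 0.

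Origin licensing is represented by CDT1 and CDC6, the loaders of the MCM ring. CDT1, whose protein is destroyed once S phase begins, read 7.68, 7.68 and 7.99 without doxycycline, against 7.26, 7.38 and 7.53 with it. The groups did not overlap, but the gap between them was narrower than the range within either group. The log2 difference was 0.39 (SE 0.12, 95% interval 0.12 to 0.67, limma adjusted p = 0.253). Its promoter, printed above, holds 2 E2F words close to the start. CDC6, an ATPase that acts beside CDT1, read 9.12, 9.27 and 9.10 without doxycycline, against 9.21, 9.19 and 9.15 with it. The array values were intermixed, at a difference of -0.02 (95% interval -0.19 to 0.15), and its window holds an E2F word as well.

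The core of the helicase is the ring of MCM2 to MCM7. All 6 subunits lay between -0.07 and 0.23, with a median of 0.09. MCM5 had the largest difference of the ring, at 8.50, 8.49 and 8.36 without doxycycline, against 8.20, 8.32 and 8.14 with it. Its groups were separated by less than the range within either group, and the difference was 0.23 (SE 0.08, 95% interval 0.05 to 0.42, limma adjusted p = 0.300). MCM2 and MCM7 were at 0.15 each, with intervals of -0.04 to 0.34 and -0.05 to 0.36. MCM3 and MCM4 were at 0.03 and 0.02, with intervals of -0.13 to 0.19 and -0.13 to 0.18. MCM6 had the opposite sign, at 8.65, 8.69 and 8.66 without doxycycline, against 8.76, 8.76 and 8.70 with it. Its groups also did not overlap, though by a narrow gap, at -0.07 (95% interval -0.21 to 0.07). The ring's subunits thus had differences of both signs, each with an interval inside 0.5 of 0.

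CDC45 and the GINS complex complete the active helicase. GINS4 had the largest difference of all 28 genes, at 6.25, 6.32 and 6.59 without doxycycline, against 5.91, 5.81 and 5.95 with it. Every array without doxycycline lay above every array with it. The gap was larger than the range of the doxycycline arrays but smaller than that of the arrays without it. The difference was 0.50, or 1.41-fold (SE 0.10, 95% interval 0.25 to 0.75, limma adjusted p = 0.140), and leaving out 1 array gave 0.40 to 0.57. A dimmer GINS4 probe set read 4.49, 4.36 and 4.65 without doxycycline, against 4.06, 4.56 and 4.35 with it. Those groups overlapped, at a difference of 0.18 (95% interval -0.16 to 0.52). The 3 other GINS subunits, which form a tetramer with GINS4, were at 0.15 (GINS3), 0.10 (GINS2) and 0.04 (GINS1). GINS3 read 8.46, 8.50 and 8.56 without doxycycline, against 8.31, 8.34 and 8.42 with it, a small separation with an interval of -0.01 to 0.31. GINS2 was also separated, by a gap too small to show after rounding, at 9.58 to 9.66 without doxycycline, against 9.48 to 9.58 with it. CDC45 was at 0.08 (95% interval -0.09 to 0.25).

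Among the activators, the kinase CDC7 was at 0.13 (95% interval -0.09 to 0.35) and its regulatory subunit DBF4 at 0.01 (95% interval -0.16 to 0.17). MCM10, which helps to start the helicase and binds primase, had the most negative difference of the 28. It read 8.06, 8.05 and 7.91 without doxycycline, against 8.13, 8.26 and 8.04 with it, a difference of -0.14 (95% interval -0.34 to 0.06, limma adjusted p = 0.570). Its groups overlapped. MCM8, a paralog of the ring subunits that works in recombinational repair, was at 0.01 (95% interval -0.14 to 0.16).

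**Figure D3:**
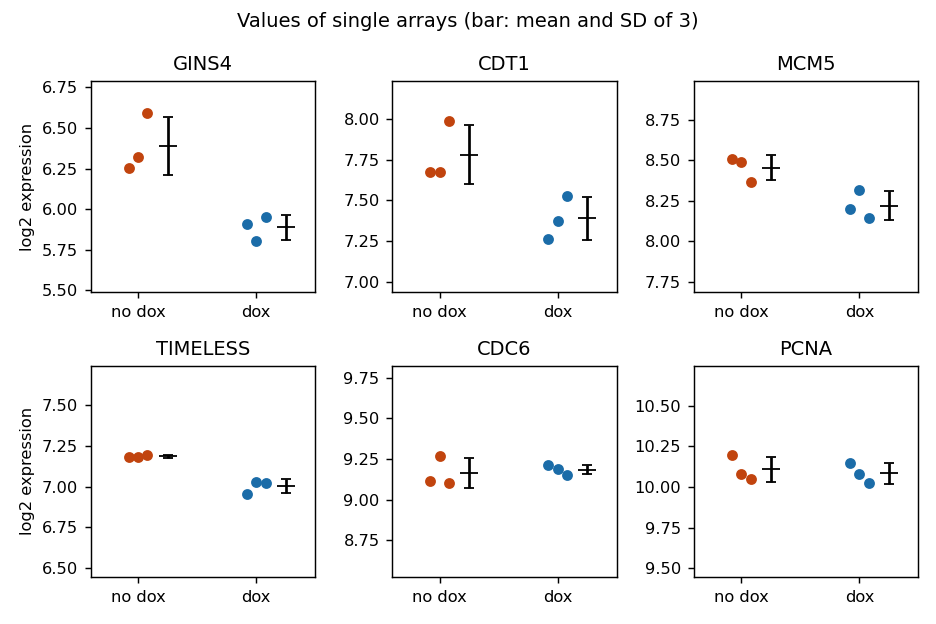
Log2 expression on single arrays for the 4 genes with an unadjusted p below 0.05 and for CDC6 and PCNA, cells without doxycycline (no dox) left of cells with it (dox), with the mean and SD of 3 arrays. All panels span the same range of log2 values, and the groups are separate in GINS4, CDT1, MCM5 and TIMELESS and intermixed in CDC6 and PCNA.

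Of the polymerase partners, PCNA, the sliding clamp of the replicative polymerases, read 10.2, 10.1 and 10.1 without doxycycline, against 10.2, 10.1 and 10.0 with it. The groups covered each other, at a difference of 0.02 (95% interval -0.15 to 0.20). FEN1, the nuclease that trims the flaps of Okazaki fragments, read 6.42, 6.04 and 6.14 without doxycycline, against 6.03, 6.13 and 6.14 with it. A single array, no-doxycycline replicate 1, stood above the rest, and the difference of 0.10 (95% interval -0.16 to 0.36) became -0.01 without it. Neither gene passed limma's test (adjusted p = 0.926 and 0.761).

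In nucleotide supply, RRM2, the subunit of ribonucleotide reductase that is made in S phase, read 8.12, 8.09 and 8.09 without doxycycline, against 7.93, 7.94 and 8.04 with it. The groups did not overlap, at a difference of 0.12 (95% interval -0.03 to 0.28, limma adjusted p = 0.494). RRM1, the large subunit that is made more evenly over the cycle, was at -0.01 (95% interval -0.17 to 0.16). DUT, which removes dUTP so that uracil stays out of DNA, read 5.32, 5.10 and 5.24 without doxycycline, against 5.27, 5.18 and 5.36 with it, with intermixed arrays and a difference of -0.05 (95% interval -0.25 to 0.16).

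At the fork, TIMELESS and TIPIN form a complex that keeps helicase and polymerase together. TIMELESS read 7.18, 7.18 and 7.19 without doxycycline, against 6.95, 7.03 and 7.02 with it. The arrays without doxycycline were nearly equal and all above the others, at a difference of 0.18 (SE 0.06, 95% interval 0.04 to 0.33, limma adjusted p = 0.292). TIPIN, its partner, was at -0.03 (95% interval -0.22 to 0.15). CLSPN, an adaptor of the checkpoint kinase CHEK1, was at 0.03, and its dimmer probe set was at -0.27 with a wide interval of -0.84 to 0.30. WDHD1, which ties polymerase alpha to the helicase, was at 0.03, and UHRF1, which helps to carry DNA methylation over to the new strand, at 0.02. SLBP, the protein that binds the stem-loop of replication-dependent histone mRNAs, read 10.1, 10.1 and 10.0 without doxycycline, against 10.2, 10.1 and 10.3 with it. Its groups met at their edges, at a difference of -0.12 (95% interval -0.29 to 0.05, limma adjusted p = 0.556).

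Across the 28 genes, 7 had all arrays without doxycycline above all arrays with it (GINS4, CDT1, MCM5, TIMELESS, GINS3, GINS2 and RRM2), and 1, MCM6, had all below. That is 28.6% of the genes, beside 19.3% of all probe sets (10.2% above and 9.09% below) and 24.6% of named genes. The median deviation of the 28 genes from each gene's mean was 0.02, 0.05 and 0.02 on the arrays without doxycycline, against -0.04, -0.01 and -0.05 on those with it. These medians of the 28 genes all lay higher on the 3 arrays without doxycycline than on the 3 with it, and no test was made of them. The medians of all probe sets split the same way, at 3.9609, 3.9503 and 3.9589 against 3.9379, 3.9467 and 3.9405. After subtraction of those whole-array medians, the median difference of the 28 genes was 0.017, against 0.032 before. By the first window listed, the 17 genes with an E2F word had a median difference of 0.03 (-0.07 to 0.39). The 8 without had a median of -0.01 (-0.14 to 0.12). GINS4 and MCM5, with differences of 0.50 and 0.23, and MCM4 are in neither count. The split depends on the window, as 20 of 25 genes held an E2F word with any window accepted. The difference between genes with and without a word was not tested. RefSeq lists pseudogenes under the symbols of 6 of the measured genes (DUT 8, PCNA 4, RRM2 3, DBF4 3, TIPIN 2 and FEN1 1), and whether their transcripts reach these probe sets was not tested.

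**Figure D4:**
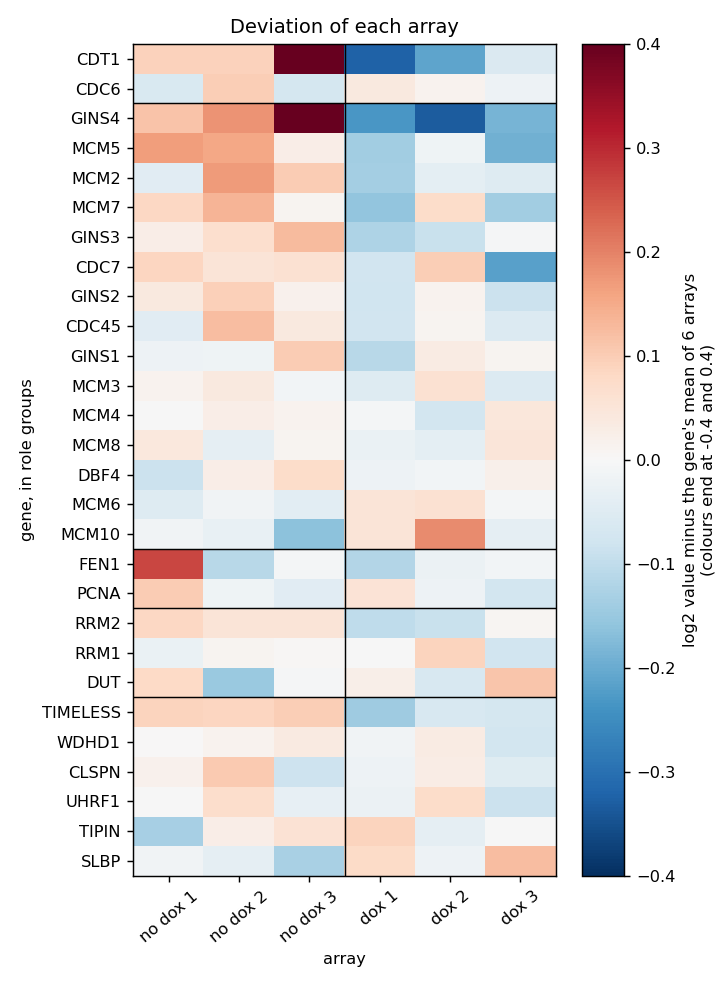
Deviation of each array from the gene's own mean over 6 arrays (log2 scale, colours from -0.4 to 0.4) for the 28 replication genes in role groups, arrays without doxycycline left of those with it. GINS4 and CDT1 show a split between the groups, most other rows are pale, and FEN1 is raised on a single array.

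Further genes of replication, from a list of 39 of which 28 were measured, had a median difference of 0.04. None passed limma's adjusted threshold (0 of 28). Unadjusted p-values below 0.05 were found for 6 higher and 2 lower genes, which is 28.6% of them, beside 12.4% of all probe sets and 14.4% of named genes. TICRR, which loads CDC45 with TOPBP1, was at 0.25 (95% interval 0.08 to 0.42), and TOP2A, the topoisomerase that untangles the copied chromosomes, at 0.19 (0.05 to 0.33). RIF1, which sets the timing of origins, was at -0.21 (-0.36 to -0.07), and SUPT16H, a subunit of the histone chaperone FACT, at -0.22 (-0.39 to -0.06). Of 12 replication stress genes measured from a list of 21, limma called 0. The unadjusted p was below 0.05 for 0 higher genes and 1 lower gene. That is 8.33% of the 12, which is less than the same 12.4% and 14.4%. The lower gene was ATR, the apical kinase of the replication checkpoint, at -0.18 (-0.34 to -0.03). The next on the lower side was ETAA1, an activator of ATR, at -0.11 (-0.33 to 0.11), and RAD1 and RAD9A, subunits of the checkpoint clamp, were at 0.15 (-0.04 to 0.33) and 0.18 (-0.09 to 0.46).

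The regulators of the passage from G1 to S, 21 measured of 30 listed, had a median of 0.03. Calls by limma numbered 0, while 4 higher and 3 lower genes had an unadjusted p below 0.05, or 33.3% of them, beside the same 12.4% and 14.4%. CCNA2, the cyclin of S phase and G2, averaged 11.0 ± 0.03 without doxycycline and 10.6 ± 0.01 with it (SD, n = 3 each), a difference of 0.37 (SE 0.06, limma adjusted p = 0.0773). Its kinase CDK2 was at 0.29 (95% interval 0.15 to 0.44). On the lower side were TFDP2, a dimer partner of E2F factors, at -0.32 (-0.46 to -0.17, limma adjusted p = 0.117) and CCNE2, a cyclin of the G1 to S passage, at -0.20 (-0.38 to -0.02).

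Genes of mitosis, 24 measured of 30 listed, all had positive differences, with a median of 0.41. By limma 9 rose (CDC20, KIF20A, CCNB2, HMMR, AURKB, CDC25C, FOXM1, MYBL2 and PLK1) and 0 fell. That is 37.5% of them, beside 0.341% of all probe sets and 0.564% of named genes. At an unadjusted p below 0.05, 21 were higher and 0 lower, or 87.5%, beside 12.4% of all probe sets and 14.4% of named genes. CDC20, which switches on the ubiquitin ligase that starts anaphase, averaged 9.23 ± 0.08 without doxycycline and 8.57 ± 0.04 with it (SD, n = 3 each), a difference of 0.66 (SE 0.07, limma adjusted p = 0.0299). CCNB2, a cyclin that activates CDK1, averaged 11.4 ± 0.01 without doxycycline and 10.8 ± 0.04 with it, a difference of 0.55 (SE 0.06, limma adjusted p = 0.0307). When single arrays were left out, 0 mitosis genes were called each time, with 19 to 22 at an unadjusted p below 0.05. After subtraction of array medians 5 were called. Mitosis genes and replication genes are set side by side here by counts and medians, and the difference between the lists was not tested.

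**Figure D5:**
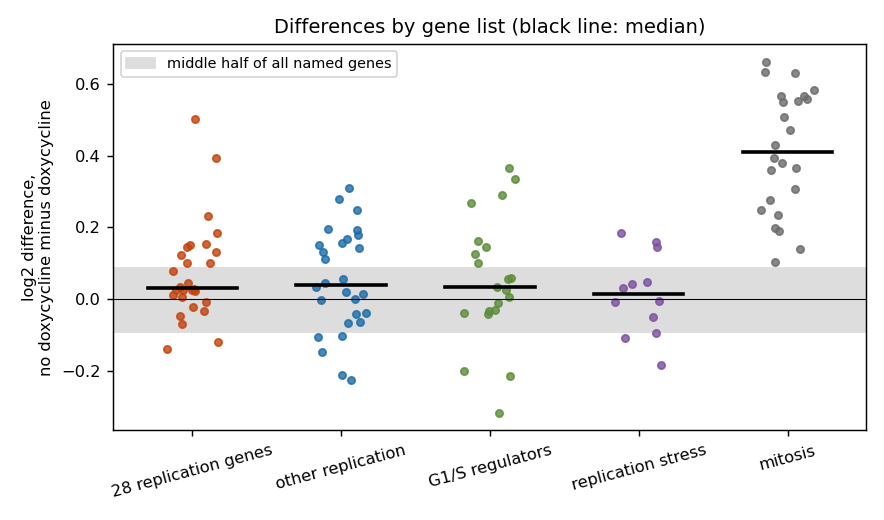
Log2 differences (no doxycycline minus doxycycline) of single genes in the replication set and 4 lists of related genes, with the median as a black line and the interquartile range of all named genes as a grey band. The medians of the first 4 columns lie between 0.01 and 0.04, and the mitosis genes lie at 0.10 to 0.66 with a median of 0.41.

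The share of all probe sets called depended on the processing. It was 0.282% after subtraction of array medians, 0.718% with trend and robust moderation and 1.16% without dim probe sets. Leaving out doxycycline replicate 1, 2 or 3 gave 0.00187%, 0.00373% and 0.028%, leaving out no-doxycycline replicate 1 gave 0.0242%, and leaving out its replicate 2 or 3 gave 0%. In each of these 0 of the 28 replication genes were called. With single arrays left out, so few probe sets passed at all that this 0 says little about the replication genes. The reach of the data limits what the count of 0 says. The smallest difference called among all probe sets was 0.49, and at the replication genes' median SE a difference of about 0.54 would have been needed for a call. The difference needed varies with a gene's own SE, which ran from 0.06 to 0.12 over the 28 genes (median 0.07).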

How the data were processed

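Total RNA of 6 samples was hybridised to Affymetrix whole-transcript arrays. The values are log2 expression values per probe set as deposited by the authors, made with Partek per the submitters' processing notes. How they were background-corrected, normalized and summarized, and on which build, is not stated there or in the labels. Values ran from 2.12 to 14.3, and the log base follows from their top, above the 11.1 that a natural logarithm of 16-bit output can reach. Depth does not apply, and the number of arrays limits the precision. Of 53617 probe sets, 16098 had 1 symbol in GEO's platform annotation, 0 had several and 37519 had none there.

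The contrast no doxycycline minus doxycycline was fitted over every probe set by limma 3.58.1 under R 4.3.3, using lmFit and eBayes, without covariate or filter, with Benjamini-Hochberg adjustment over all probe sets and a threshold of 0.05. An exact permutation test of 3 against 3 arrays cannot give a p below 0.1. The procedure was tested on simulated data. The replication genes, the other lists and the rules were chosen with earlier results of these data known, so the mitosis count is not independent support. Array values were given for members with an unadjusted p below 0.05, for the 2 with the smallest p in each role group and for some others, named after their values were seen. From other lists, the 2 genes with the smallest p in each direction were named. Alternatives were quantile normalization, subtraction of array medians, trend and robust moderation, no dim probe sets, the replicate number as a block, other probe sets of a gene, and leaving out each array.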

Additional observations from a re-analysis of the deposited data

How the results depend on the processing

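The count of replication genes called by limma was 0 under every alternative run (2 to 6 at an unadjusted p below 0.05), and the smallest adjusted p among them was that of GINS4, at 0.0989 to 0.305, or, with the lowest-mean probe set of each gene, that of CDT1, at 0.253. The median difference stayed between 0.02 and 0.07. Among all probe sets, 183 were called, and 385 with trend and robust moderation, 311 without dim probe sets (of 26809), and 0 with the replicate block (6251 at an unadjusted p below 0.05). Leaving out doxycycline replicate 1, 2 or 3 left 1, 2 and 15, and leaving out no-doxycycline replicate 1, 2 or 3 left 13, 0 and 0 (5542 to 6191 at an unadjusted p below 0.05). With the replicate block or 1 array left out, so few probe sets passed that 0 replication genes among them says little. Deviations of same-numbered arrays correlated at -0.01, -0.01 and 0.04, and those of differently numbered arrays at -0.03 to 0.04. No-doxycycline replicate 1 and 2 correlated best with another number. Correlations this near 0 cannot decide whether replicate numbers paired the samples. KDM4C and DCN, also followed only after the data were seen, each had an adjusted p of 0.118 with the replicate block. The mitosis list, checked the same way after the data were seen, had 0 genes called with the replicate block (20 at an unadjusted p below 0.05), 5 after subtraction of array medians, 0 with any single array left out, and 10 to 13 under the others, against 9. Of 10 replication genes followed singly, 6 kept their sign throughout. The other 4 did not keep it with 1 array left out. CDC6 then ran from -0.0761 to 0.00794 and DUT from -0.0997 to 0.0144. FEN1 ran from -0.00787 to 0.181 and PCNA from -0.0192 to 0.0579. The cause was not tested. Doxycycline withdrawal without the construct was not analysed here.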
